A study of Drosophila melanogaster with 20 samples.

Results

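The comparison described here is that of white-eyed with red-eyed male heads, written w- males and w+ males. It rests on 10 of the 20 RNA-seq samples of the series, 5 of w- males and 5 of w+ males, and on 11187 of the 17609 genes in the count table, those with at least 10 reads in at least 3 of the 10 male samples. Each sample was a pool of 10 whole heads of males at 1 week of age. Both groups have the w1118 background, in which the white gene (symbol w) has lost part of its sequence. The w+ males carried instead a working w from the Harwich line, which had been crossed into w1118 over 10 generations, and the w- males were white-eyed offspring of the same crosses. The model is therefore a single donor allele in a single recipient line, and DNA of the Harwich X chromosome next to w entered the w+ males with it. The samples of a group bear the numbers 1 to 5, and what the samples of a number share is not given in the labels, so the p-values measure the spread between these pools of heads.

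White is a half-molecule membrane transporter of the ABC family. With the protein Scarlet it carries tryptophan-derived precursors of the brown ommochromes into the pigment granules of the eye, and with Brown it carries guanine-derived precursors of the red pteridines. The pigments screen the photoreceptors from stray light, and white is also expressed in other tissues of the head. Head RNA comes from brain and optic lobes, photoreceptors and pigment cells, glia, muscle, cuticle-forming cells and the fat body, a tissue that stores lipid and glycogen and makes most blood proteins and antimicrobial peptides. In such bulk samples fewer cells of a type and less RNA per cell cannot be told apart.

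Levels are given in CPM (counts of a gene per 1000000 counted reads, after scaling of the totals), and changes as the log2 fold change of w- over w+ males with its standard error (SE) from edgeR's quasi-likelihood fit. The totals were scaled to one another by the trimmed mean of M-values (TMM). A gene is said to have risen or fallen where its p-value, adjusted over all 11187 genes by Benjamini and Hochberg's method, was under 0.05. The w- libraries held 34335778 to 38617005 counted reads and the w+ libraries 39274716 to 48866963, so the totals did not overlap (exact two-sided permutation p = 0.0079, the lowest possible with 5 against 5). The label check held in every library: w had 0.220, 0.260, 0.293, 0.294 and 0.383 CPM in w- males, against 9.54, 9.15, 12.9, 12.5 and 10.4 CPM in w+ males, a log2 fold change of -5.21 ± 0.12 (SE; edgeR adjusted p = 4.4e-07). Photoreceptor, neuron, glia and muscle markers were abundant in all 10 libraries, and their summed levels overlapped between the groups. The midgut proteases betaTry and thetaTry and the accessory gland gene Acp26Aa had 0 reads in all 10 male libraries. Other markers of these tissues were read, the midgut amylase gene Amy-p with up to 223 reads in a library and the accessory gland gene Acp63F with up to 17. The summed midgut markers were 0.69 to 1.67 CPM in w- males and 2.10 to 5.41 CPM in w+ males, without overlap. Most of this sum was Amy-p in every library, with 0.506 of 0.693 CPM in w- males 3 and 5.30 of 5.41 CPM in w+ males 5. Amy-p was the only 1 of the 6 midgut markers that passed the count filter, so the gap is that of a single gene. The accessory gland sums overlapped and stayed below 1 CPM.

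The libraries differed among themselves in ways that the eye color labels do not give. In w- males 1, w- males 4 and w+ males 4, 246 genes were at least 2 times higher than in every other male library, with a summed level of 271.2 CPM in w- males 1, 342.4 CPM in w- males 4 and 691.6 CPM in w+ males 4, against 12.3 to 17.9 CPM in the other 7 libraries. These genes include the sperm-tail gene don juan (dj), which had 2.37, 0, 0, 2.92 and 0 CPM in w- males, against 0.0204, 0.0245, 0, 5.26 and 0.0475 CPM in w+ males. The sperm-tail gene Mst98Ca had 1.93, 0, 0, 2.28 and 0.128 CPM in w- males, against 0, 0, 0, 4.84 and 0 CPM in w+ males. All 4 testis markers that passed the count filter were highest in these 3 libraries. Of the 246 genes, 0 passed edgeR's test for eye color, 0 had an unadjusted p under 0.05 and 1 passed in DESeq2. They were picked as high in libraries of both groups, so the test could hardly call them. Its outcome does not show whether these libraries affect the comparison. The named genes whose calls were lost without these libraries are given together after the gene groups. A second pattern followed the sample numbers: the clock gene period (per) had 49.8, 56.0, 73.0, 132 and 158 CPM in w- males, against 42.9, 44.9, 58.0, 97.8 and 102 CPM in w+ males, and the chaperone gene Hsp83 had 1013, 867, 724, 445 and 423 CPM in w- males, against 1158, 812, 721, 389 and 340.1 CPM in w+ males. Samples 4 and 5 of either group had the highest per and the lowest Hsp83, and the groups overlapped for both genes. Of the 5 fat body markers (apolpp, Apoltp, Lsp2, FASN1, Lsd-1), all 5 had a log2 fold change below 0 and 2 passed the test. Their summed level was 4607 to 7171 CPM in w- males and 7536 to 11757 CPM in w+ males, so the groups did not overlap.

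**Figure D1:**
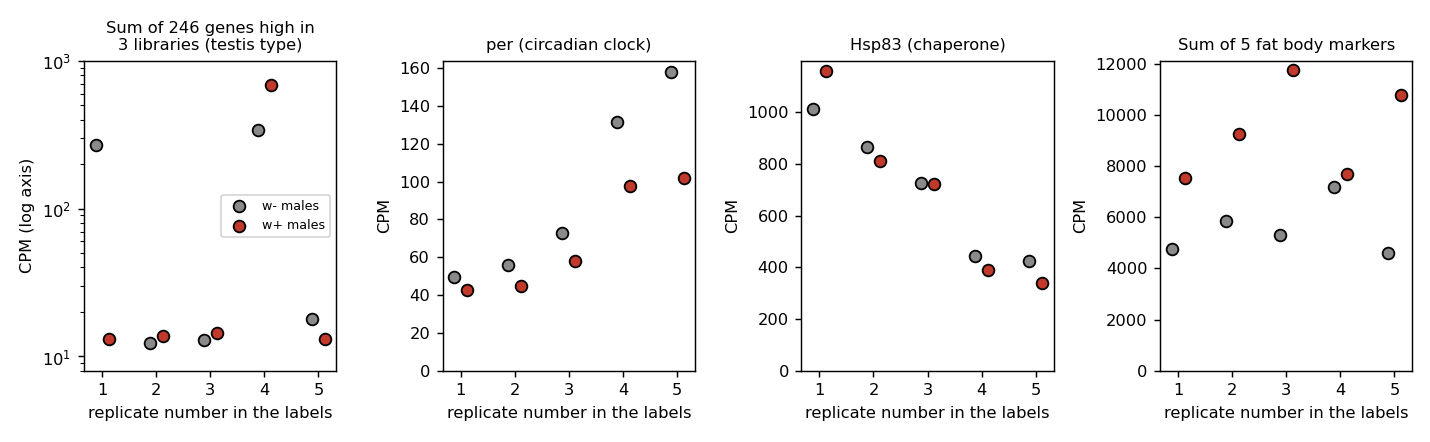
Levels in CPM in each male library, against the replicate number in the labels, for 4 measures: the sum of the 246 genes high in 3 libraries (log axis), per, Hsp83 and the sum of 5 fat body markers; gray points are w- males and red points w+ males. The testis-type sum is at least 271 CPM in w- males 1 and 4 and in w+ males 4 and under 18 CPM elsewhere, per is highest and Hsp83 lowest in samples 4 and 5 of either group, and the fat body sum is lower in every w- library than in any w+ library.

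Of the 11187 genes, 12.7% passed the test, 4.64% as higher (519 genes) and 8.06% as lower (902 genes) in w- males. Most changes were small. The median log2 fold change was 0.31 among the genes that rose and -0.38 among those that fell, and 123 genes changed by more than 1 log2 unit, 52 upward and 71 downward. A change in the same direction in all 5 same-numbered pairs was seen for 1389 of the 1421 genes, and the groups did not overlap for 1084 of them. The genes were picked by a test of these same values with the pairs as blocks, so neither count is separate support for the calls. With libraries scaled by their totals alone, 1054 genes were higher and 722 lower, 59.4% higher where the main scaling had 36.5%, and the median over all genes moved to 0.05. Without pairs 1 and 4, which hold the testis-type libraries, 923 genes passed, and without the 3 testis-type libraries alone, in a fit without the pairs, 1079 passed, 945 of them among the 1421.

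**Figure D2:**
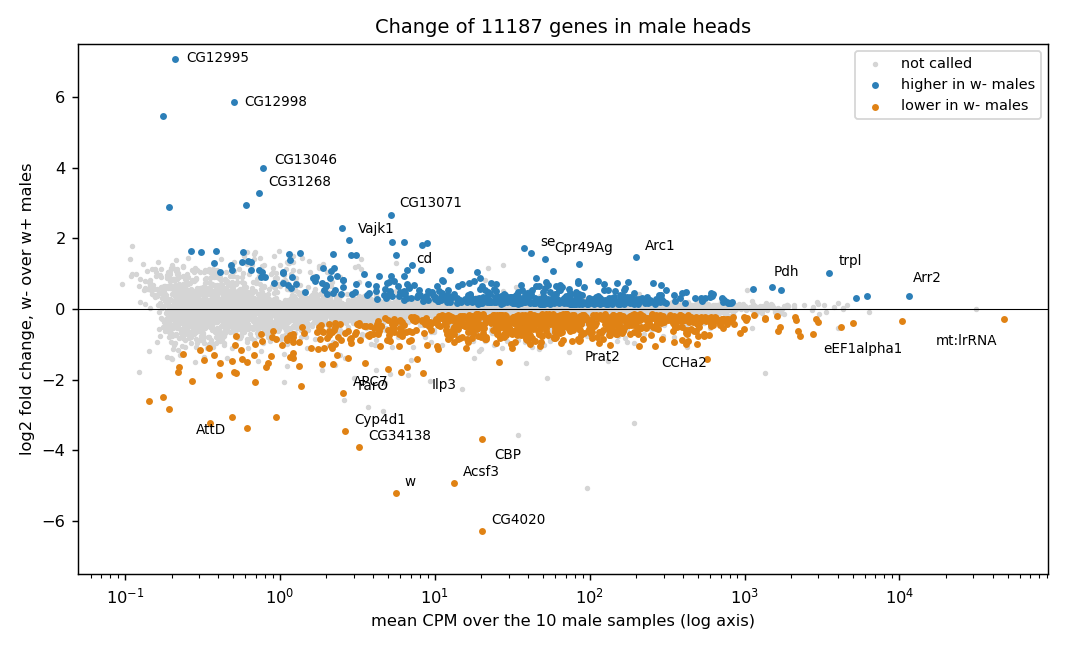
Log2 fold change of w- over w+ males for 11187 genes, against the mean level in CPM over the 10 male samples (log axis); blue points rose, orange points fell and gray points did not pass the test. The deepest falls are CG4020, w and Acsf3, and among the abundant genes at the right trpl stands at 1.03 while Arr2 and mt:lrRNA lie within 1 log2 unit of 0.

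Of the 10 genes that fell furthest, among those with a mean of at least 1 CPM in a group and a fall in all 5 pairs, 6 lie on the X chromosome, w included. Of all 71 genes lower by more than 1 log2 unit, 20 lie on the X chromosome and 51 on the autosome arms. CG4020 encodes a predicted fatty acyl-CoA reductase, an enzyme type that makes fatty alcohols, and lies on the X chromosome from 5905746 to 5908001 (BDGP6.54 assembly), 3.11 Mb from w. It had 0.633, 0.548, 0.480, 0.375 and 0.511 CPM in w- males, against 30.0, 47.4, 45.1, 43.2 and 34.9 CPM in w+ males, a log2 fold change of -6.28 ± 0.13 (SE; edgeR adjusted p = 9.3e-07). Every w- library was below 1 CPM and every w+ library was near or above 30 CPM, a gap wider on the log scale than that of w itself. Acsf3, a predicted acyl-CoA synthetase, and CBP, a calcium-binding protein gene, are neighbors on the same strand, 4.54 and 4.55 Mb from w. Acsf3 had 0.909, 0.693, 0.853, 0.857 and 0.818 CPM in w- males, against 16.5, 34.2, 28.8, 26.8 and 22.2 CPM in w+ males, a log2 fold change of -4.92 ± 0.16 (SE; edgeR adjusted p = 3.5e-05). CBP had 3.58, 2.57, 2.85, 2.73 and 2.53 CPM in w- males, against 24.6, 49.5, 44.8, 36.2 and 32.2 CPM in w+ males, a log2 fold change of -3.68 ± 0.22 (SE; edgeR adjusted p = 9.5e-04). In both genes w+ males 1 was the lowest and w+ males 2 the highest of the red-eyed libraries, and no w- library reached the w+ range. APC7, a subunit of the anaphase-promoting complex, had 0.854, 0.779, 0.613, 0.883 and 0.997 CPM in w- males, against 3.19, 4.58, 4.74, 4.59 and 4.51 CPM in w+ males, a log2 fold change of -2.38 ± 0.15 (SE; edgeR adjusted p = 1.2e-04).

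Closer to w, the cytochrome P450 gene Cyp4d1 (0.63 Mb away, at lower coordinates) had 0.330, 0.577, 0.613, 0.294 and 0.409 CPM in w- males, against 5.23, 5.09, 5.15, 4.62 and 4.06 CPM in w+ males, a log2 fold change of -3.45 ± 0.17 (SE; edgeR adjusted p = 3.5e-05). FarO, a fatty acyl-CoA reductase of oenocytes, lies 0.59 Mb from w and had 2.86, 2.68, 2.99, 2.84 and 2.33 CPM in w- males, against 9.61, 8.98, 9.91, 10.9 and 7.81 CPM in w+ males, a log2 fold change of -1.78 ± 0.07 (SE; edgeR adjusted p = 7.7e-06). The groups were apart for both genes. The gap gene giant (gt), which encodes a transcription factor, fell by 1.05, CG3091 fell by 0.90, CG32801 fell by 1.54 and CG3603 fell by 1.49 on the log2 scale. In the other direction, CG4313 rose by 0.70 ± 0.06 (SE; edgeR adjusted p = 6.4e-04), CG3191 by 0.55 ± 0.04 and PIG-K, a subunit of the enzyme that attaches GPI anchors, by 0.41 ± 0.04. CR14798, a pseudogene 1.10 Mb from w, had 3.58, 3.75, 4.82, 4.23 and 4.68 CPM in w- males, against 0.879, 0.905, 0.880, 0.663 and 0.902 CPM in w+ males, a log2 fold change of 2.31 ± 0.13 (SE; edgeR adjusted p = 5.4e-05). Its w- libraries were all above 3.5 CPM and its w+ libraries all below 1 CPM.

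Within 1 Mb of w, 164 genes were tested, of which 15 rose and 36 fell, so 31.1% passed, against 12.7% of all genes. The share was 27.6% of 76 genes from 2 to 1 Mb below w, 32.8% of 131 genes in the last Mb below it, 24.2% of 33 genes in the first Mb above it and 3.13% of 64 genes in the next Mb. Further above w, the share was 12.7% of 71 genes at 2 to 3 Mb, 16.2% of 111 genes at 3 to 4 Mb and 19.4% of 62 genes at 4 to 5 Mb, the last of these windows holding Acsf3 and CBP and the one before it CG4020. Beyond that, 10.7% of 458 genes passed at 5 to 10 Mb and 11.8% of 761 genes at 10 Mb and more, beside 12.4% of 9323 genes on the autosome arms. The X chromosome as a whole had 14.3% of 1832 genes. The w+ allele came with neighboring DNA of another line, so an effect of w on these neighbors and a difference in their own sequence cannot be told apart. The adhesion genes kirre (0.14 Mb) and rst (0.17 Mb) and the insulin-like peptide gene Ilp6 (0.46 Mb), taken up below with their families, also lie in this window. So do the clock gene per, the clock peptide receptor gene Pdfr and the P450 gene Cyp4d14, which are taken up below as well.

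**Figure D3:**
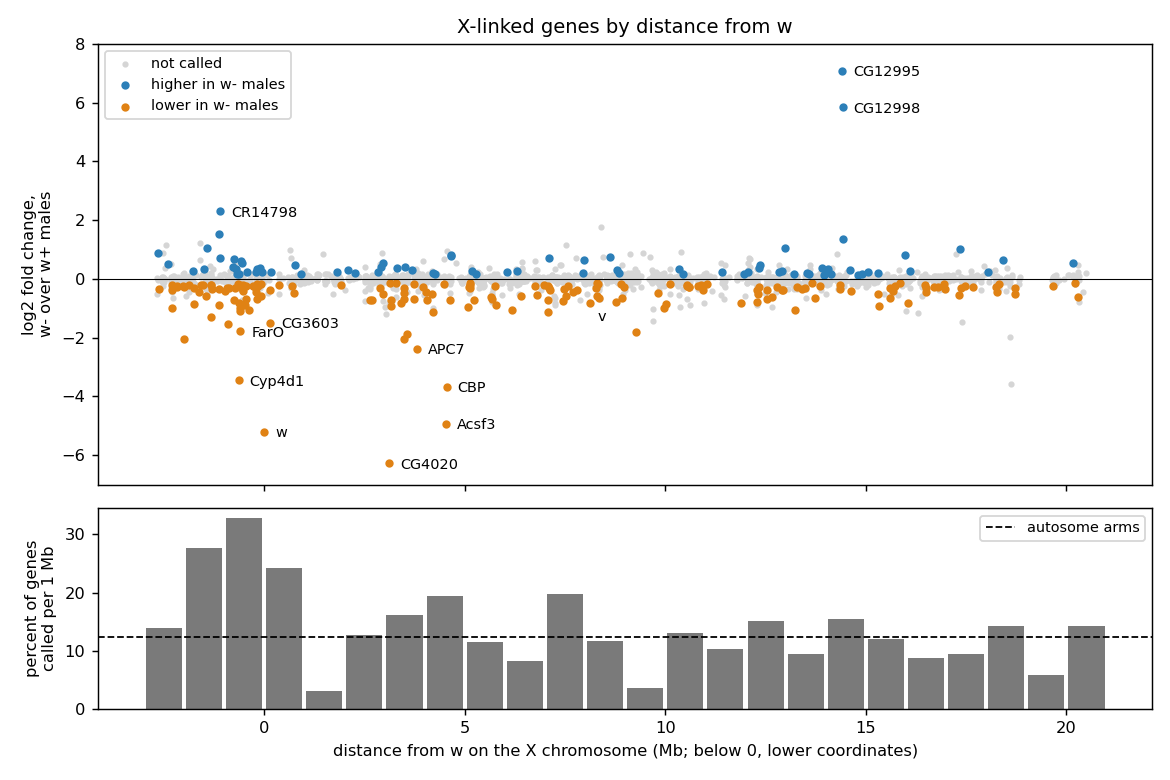
Above, log2 fold change of w- over w+ males for X-linked genes against their distance from w in Mb, with genes that rose in blue, genes that fell in orange and the rest in gray; below, percent of the genes tested in each 1 Mb window that passed, with the autosome arms as a dashed line at 12.4%. The windows next to w stand at 24.2% to 32.8%, and the deepest falls other than w lie 3.11 to 4.55 Mb away.

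Some genes were read in w- males and nearly absent from w+ males. They were picked after their values were seen, as the genes that passed with at most 3 reads in all 5 libraries of a group, and all 3 such genes were low in w+ males. CG12995 (X chromosome, 17209368 to 17209997) had 78 reads in w- males, with 12 to 20 in each library, against 0 reads in w+ males, so it was at least 29.7-fold higher in w- males when the w+ group is set at a floor of 3 reads over its 5 libraries. CG12998, which lies close to it on the X chromosome (17218667 to 17219787), had 184 reads in w- males and 3 reads in w+ males, a ratio of 70.1 (95% exact interval 23.6 to 343). The gene CG5162, which lies between them, did not pass, with a log2 fold change of -0.11 (edgeR adjusted p = 0.62). CG31862 on chromosome arm 2L (12338848 to 12339477) had 64 reads in w- males and 1 read in w+ males, a ratio of 73.1 with an interval of 12.7 to 2932. These intervals cover counting error only, since the reads carry no molecular identifiers. The 3 genes met the count filter only through their w- libraries and were picked for near absence from w+ males. The fold values and intervals therefore describe these reads and are not tests. The w- counts are low but similar between libraries. In the female samples, which are separate pools, CG12995 had 11 to 24 reads in each w- library against 0 or 1 read in each w+ library, CG12998 had 14 to 28 against 0 or 1, and CG31862 had 5 to 13 against 0 or 1.

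The genes that make eye pigment changed in both directions. Of 8 ommochrome genes, 5 rose and 2 fell, with a median log2 fold change of 0.41, beside 0.00 over all genes. Cardinal (cd), a peroxidase of the last ommochrome step, had 10.1, 10.8, 7.94, 8.43 and 8.10 CPM in w- males, against 4.56, 3.96, 5.18, 4.08 and 3.30 CPM in w+ males, a log2 fold change of 1.11 ± 0.11 (SE; edgeR adjusted p = 0.0014). Scarlet (st), the ommochrome partner of White, had 25.5, 28.5, 24.1, 25.1 and 24.6 CPM in w- males, against 21.5, 16.3, 19.6, 19.4 and 16.2 CPM in w+ males, a log2 fold change of 0.46 ± 0.08 (SE; edgeR adjusted p = 0.012). Both genes were higher in every w- library than in any w+ library. The transporter gene karmoisin (kar) rose by 0.41 ± 0.05, Rab32, a small GTPase of pigment granule formation, by 0.39 ± 0.05 and kynurenine formamidase (KFase) by 0.40 ± 0.05. Vermilion (v), the tryptophan dioxygenase that opens the pathway, went the other way, with 24.5, 35.5, 29.4, 40.9 and 24.7 CPM in w- males, against 46.8, 45.1, 60.7, 57.5 and 58.7 CPM in w+ males, a log2 fold change of -0.81 ± 0.14 (SE; edgeR adjusted p = 0.018). Kyat, which diverts kynurenine to kynurenic acid, fell by 0.25, and cinnabar (cn), the next enzyme of the main path, stood under 1 CPM in all libraries, with a log2 fold change of 0.42 ± 0.29 (SE; edgeR adjusted p = 0.41). Of 15 genes of pigment granule trafficking, Rab32 was the only one that rose and deep orange (dor), a vesicle fusion subunit, the only one that fell. That is 13.3%, near the 12.7% of all genes. Vermilion did not pass without pair 1 or without pair 3.

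Of 12 pteridine genes, 4 rose and 1 fell, and the median of the list was -0.07. Sepia (se), which makes the pyrimidodiazepine precursor of the red drosopterins, had 66.3, 61.7, 65.9, 57.3 and 61.7 CPM in w- males, against 25.3, 20.8, 21.4, 19.5 and 18.3 CPM in w+ males, the largest change of the pigment genes other than w, with a log2 fold change of 1.58 ± 0.06 (SE; edgeR adjusted p = 5.6e-06). Every w- library stood above 57 CPM and every w+ library below 26 CPM. The first enzyme of the pathway, the GTP cyclohydrolase Punch (Pu), had 219, 228, 219.7, 219.8 and 228 CPM in w- males, against 122, 124, 132, 141 and 141 CPM in w+ males. The next enzyme, purple (pr), had 105, 105, 103, 104 and 105 CPM in w- males, against 62.7, 59.6, 66.2, 64.4 and 62.1 CPM in w+ males. Brown (bw), the pteridine partner of White, had 64.6, 70.7, 65.9, 62.7 and 65.3 CPM in w- males, against 40.7, 34.9, 40.6, 44.1 and 35.4 CPM in w+ males. The groups were apart for all 3, with log2 fold changes of 0.76 ± 0.05, 0.73 ± 0.04 and 0.76 ± 0.07 (SE; edgeR adjusted p = 9.4e-05, adjusted p = 5.0e-05 and adjusted p = 0.0010 in this order). Dihydropterin deaminase (DhpD) fell by 0.31. Henna (Hn), the phenylalanine hydroxylase whose cofactor is a pteridine, was also below the w+ range in each w- library but did not pass, with a log2 fold change of -0.46 ± 0.12 (SE; edgeR adjusted p = 0.054).

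Several abundant photoreceptor genes rose. Of 26 genes of the phototransduction cascade, which turns rhodopsin activation by way of a phospholipase into the opening of TRP channels, 7 rose and 0 fell. The share that passed was 26.9%, beside 12.7% of all genes. The median of the list was 0.12, and 20 of its 26 members were above 0. The channel gene trpl had 3941, 4260.0, 4461, 5138 and 5868 CPM in w- males, against 2353, 2276, 2093, 2949 and 1894 CPM in w+ males, a log2 fold change of 1.03 ± 0.13 (SE; edgeR adjusted p = 0.0056). Its lowest w- library was above its highest w+ library. The arrestins, which bind and silence active rhodopsin, rose less: Arr1 had 6554, 7055, 7027, 6966 and 7149.8 CPM in w- males, against 5592, 5414, 4984, 6223 and 4856 CPM in w+ males, a log2 fold change of 0.37 ± 0.07 (SE; edgeR adjusted p = 0.011). Arr2 had 12313, 13506, 13232, 12436 and 13133 CPM in w- males, against 11176, 10069, 9239, 11733 and 8309 CPM in w+ males, a log2 fold change of 0.37 ± 0.09 (SE; edgeR adjusted p = 0.033), and did not pass without pair 2, 3 or 5. Calmodulin (Cam) rose by 0.32 ± 0.06, the lipid phosphatase gene laza by 0.49 ± 0.06, the rhodopsin phosphatase gene rdgC by 0.27 ± 0.06 and the CDP-diacylglycerol synthase gene Cds by 0.21 ± 0.05. The phospholipase gene norpA was close to the threshold, with a log2 fold change of 0.19 ± 0.06 (SE; edgeR adjusted p = 0.065). Without pair 3 or without pair 5, 4 of the 26 genes passed, and with libraries scaled by their totals alone 13 did.

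The opsins did not move together. Rh4, the ultraviolet opsin of inner photoreceptors, had 722, 686, 705, 738 and 772 CPM in w- males, against 512, 543, 535, 587 and 503 CPM in w+ males, a log2 fold change of 0.44 ± 0.05 (SE; edgeR adjusted p = 0.0027). Rh6, the green opsin of other inner photoreceptors, had 411, 461, 480.1, 518 and 580.1 CPM in w- males, against 339, 343, 339, 381 and 341 CPM in w+ males, a log2 fold change of 0.48 ± 0.07 (SE; edgeR adjusted p = 0.0038). The groups did not overlap for either. The major opsin ninaE, made in the outer photoreceptors, had 32083, 30884, 30456, 30445 and 32333 CPM in w- males, against 32798, 30195, 30443, 33584 and 29982 CPM in w+ males, with full overlap and a log2 fold change of -0.01 ± 0.06 (SE; edgeR adjusted p = 0.96). Rh3 and Rh5 did not pass, with log2 fold changes of 0.14 ± 0.08 and 0.22 ± 0.08. Photoreceptor dehydrogenase (Pdh), a pigment cell enzyme of chromophore recycling, had 2170.2, 2324, 1969, 1819.7 and 1812 CPM in w- males, against 1443, 1406, 1640.0, 1449.8 and 1088 CPM in w+ males, a log2 fold change of 0.53 ± 0.08 (SE; edgeR adjusted p = 0.0054). Without the 3 testis-type libraries Pdh did not pass.

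Among 14 rhabdomere and eye adhesion genes, 4 rose and 1 fell. The protocadherin gene Cad99C had 64.0, 59.6, 61.3, 65.1 and 61.0 CPM in w- males, against 40.2, 39.7, 44.3, 42.2 and 40.1 CPM in w+ males, a log2 fold change of 0.59 ± 0.04 (SE; edgeR adjusted p = 1.9e-04). The polarity gene crumbs (crb) rose by 0.33 ± 0.05, prominin (prom) by 0.17 ± 0.04 and roughest (rst) by 0.25 ± 0.06. Kirre, the adhesion partner and chromosomal neighbor of rst, had 92.2, 91.5, 93.4, 97.9 and 104 CPM in w- males, against 125, 133, 119.7, 122 and 128 CPM in w+ males, a log2 fold change of -0.39 ± 0.05 (SE; edgeR adjusted p = 0.0025), so the 2 neighbors changed in opposite directions. Of 8 genes of histamine transmission, the photoreceptor transmitter system, 3 rose and 0 fell. CarT, the transporter that returns carcinine to photoreceptors for histamine recycling, had 98.3, 82.7, 93.4, 116 and 143 CPM in w- males, against 60.0, 55.8, 61.4, 65.4 and 59.8 CPM in w+ males, a log2 fold change of 0.79 ± 0.10 (SE; edgeR adjusted p = 0.0051). The histamine-gated channel gene HisCl1 rose by 0.24 ± 0.05 and the transporter gene inebriated (ine) by 0.25 ± 0.07. The lens protein gene retinin rose by 0.46 ± 0.10 (SE; edgeR adjusted p = 0.025) with overlapping groups.

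Cuticle genes gave some of the largest rises. The 4 Vajk genes, which encode cuticle proteins of low sequence complexity, all rose, with a median log2 fold change of 1.32. Vajk1 had 4.65, 3.52, 5.36, 4.12 and 4.42 CPM in w- males, against 1.21, 1.08, 0.983, 1.67 and 0.831 CPM in w+ males, a log2 fold change of 1.95 ± 0.18 (SE; edgeR adjusted p = 8.2e-04). Vajk4 had 8.73, 8.57, 8.85, 8.11 and 7.23 CPM in w- males, against 2.88, 1.96, 2.04, 2.43 and 1.88 CPM in w+ males, a log2 fold change of 1.90 ± 0.10 (SE; edgeR adjusted p = 4.3e-05). The groups were apart for both, and Vajk3 and Vajk2 rose by 0.74 ± 0.11 and 0.64 ± 0.15. Of 44 cuticle genes of the Cpr type and the Tweedle family that were tested, of 125 in the annotation, 10 rose and 1 fell. That is 25%, beside 12.7% of all genes. Cpr49Ag was the most abundant of the strong risers, with 76.7, 77.4, 79.3, 71.6 and 67.0 CPM in w- males, against 27.8, 30.5, 32.6, 32.5 and 19.0 CPM in w+ males, a log2 fold change of 1.41 ± 0.09 (SE; edgeR adjusted p = 3.2e-04). Cpr62Bb rose by 0.56 ± 0.05 and Cpr62Bc by 1.15 ± 0.14, while Edg91, at about 1 CPM or less, fell by 1.51. Single genes rose further: CG13046, a gene of the retinin-like type on arm 3L, had 1.62, 1.73, 1.60, 1.18 and 1.23 CPM in w- males, against 0.0817, 0.0734, 0.0518, 0.172 and 0.0712 CPM in w+ males, a log2 fold change of 3.99 ± 0.32 (SE; edgeR adjusted p = 3.6e-04). CG13071, its neighbor in the same region of the arm, had 9.97, 7.74, 9.78, 7.68 and 9.58 CPM in w- males, against 1.43, 1.86, 1.48, 1.38 and 0.926 CPM in w+ males, a log2 fold change of 2.67 ± 0.17 (SE; edgeR adjusted p = 2.5e-04). The long noncoding RNAs lncRNA:CR45456 and lncRNA:CR45457, which follow each other on arm 2L, rose by 1.82 ± 0.15 and 1.91 ± 0.19. lncRNA:CR45455 rose by 2.94 ± 0.37, CG31268 by 3.27 ± 0.25 and CG13272 by 1.87 ± 0.30. CG13046, CG31268 and lncRNA:CR45455 had under 10 reads in every w+ library and met the count filter only through their w- libraries. Their fold values and p-values are therefore given as description of these reads. Among autosomal genes, CG34138 on arm 3R had 0.881, 0.0577, 0.373, 0.268 and 0.256 CPM in w- males, against 2.74, 6.66, 9.76, 1.52 and 9.86 CPM in w+ males, a log2 fold change of -3.90 ± 0.74 (SE; edgeR adjusted p = 0.032), and did not pass without pair 2, 3, 4 or 5. CG42876 on arm 2L had a log2 fold change of -2.18 ± 0.17 (SE; edgeR adjusted p = 3.1e-04).

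**Figure D4:**
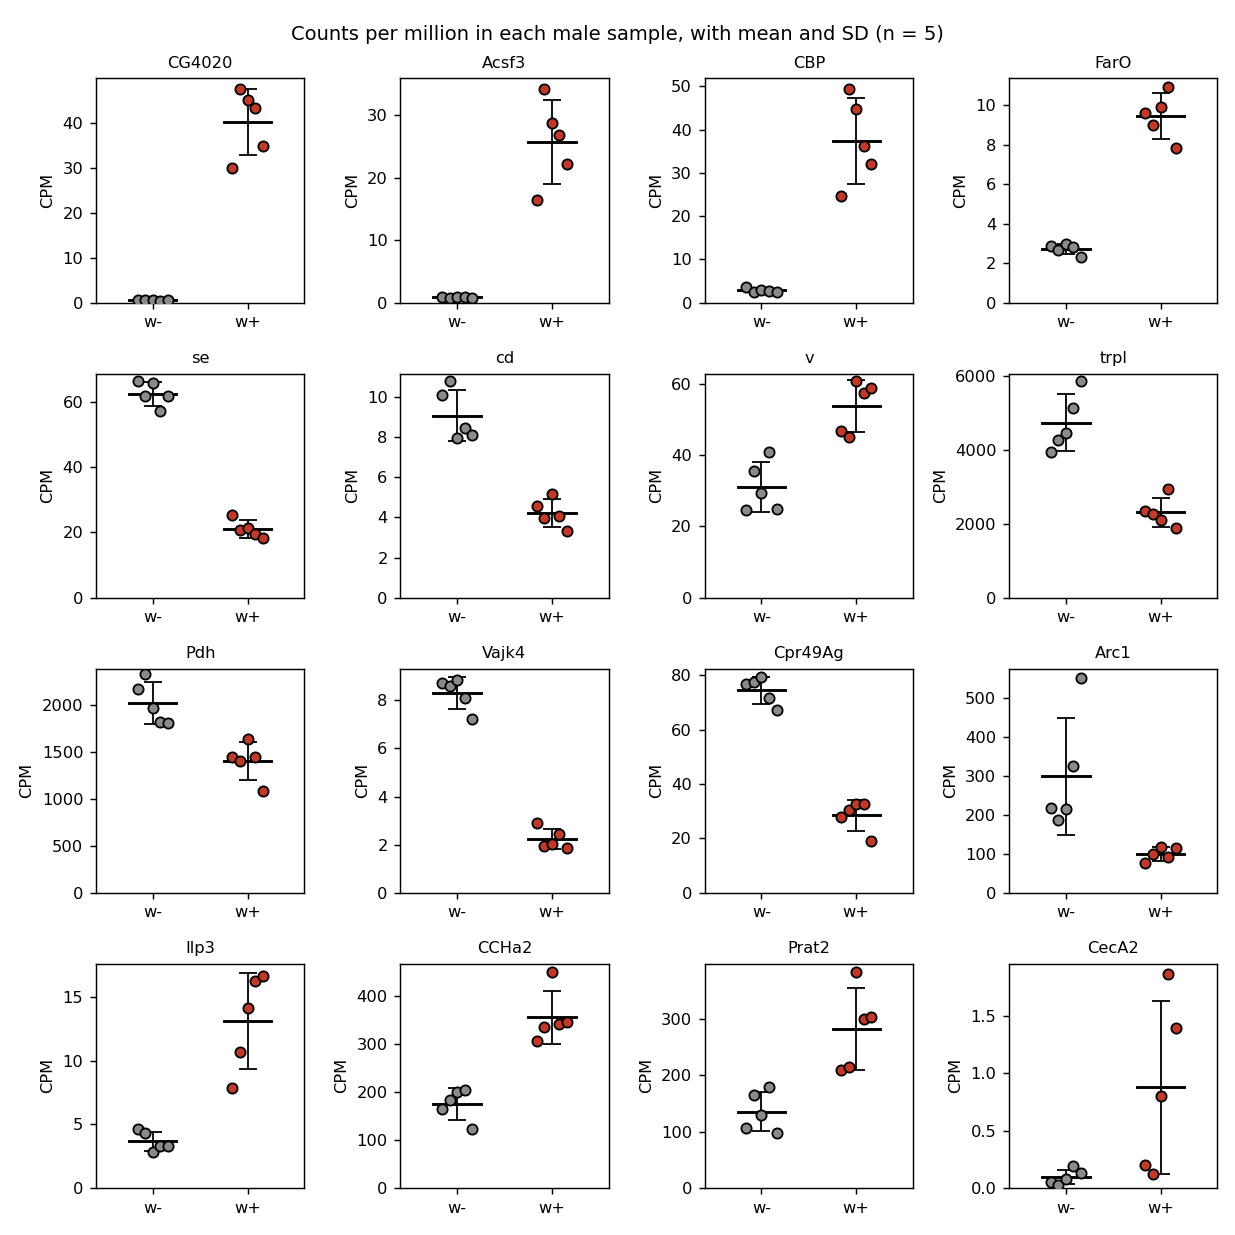
Levels in CPM of 16 genes in each sample of w- males (gray, left) and w+ males (red, right), with the mean as a bar and the SD as whiskers (n = 5 each). The groups are apart in all panels but CecA2, where w+ males 2 lies within the range of the w- males.

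The machinery of protein synthesis was lower in w- males. Of 83 cytosolic ribosomal protein genes tested, 80 fell and 0 rose, with a median log2 fold change of -0.28, and the groups did not overlap for 81 of the 83, beside 13.0% of all genes. The falls were similar in size: RpLP1, a stalk protein of the large subunit, had 635, 626, 637, 649.7 and 611 CPM in w- males, against 772, 793, 826, 801 and 778 CPM in w+ males, a log2 fold change of -0.33 ± 0.04 (SE; edgeR adjusted p = 0.0023). Stubarista (sta), the gene of ribosomal protein SA, had 613, 641, 661, 630.0 and 594 CPM in w- males, against 813, 769.5, 818, 795 and 771 CPM in w+ males, a log2 fold change of -0.34 ± 0.04 (SE; edgeR adjusted p = 0.0027). Together the 83 genes took 37592, 38222, 38023, 38036 and 36973 CPM in w- males, against 45623, 43592, 47209.7, 45889.8 and 46371 CPM in w+ males. The members that did not pass were RpL38, at -0.16 ± 0.04 (SE; edgeR adjusted p = 0.053), and the paralogs RpS15Ab and RpL10Aa. RpL10Aa was read only in the 3 testis-type libraries. Reads of near-identical paralogs may be shared between them. Without pairs 1 and 4, 56 of the 83 genes passed, and when all 20 samples were fitted together, so that the spread of the female samples entered, 6 passed.

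Of 49 translation factor genes, 24 fell and 0 rose, with a median of -0.16. The elongation factor gene eEF1alpha1 had 3231, 3635, 3386, 3782 and 3263 CPM in w- males, against 4929, 4784, 4993, 4878 and 5105 CPM in w+ males, a log2 fold change of -0.52 ± 0.06 (SE; edgeR adjusted p = 0.0019). eEF2 had 2587, 2677, 2566, 2682 and 2509 CPM in w- males, against 3342, 3247, 3463, 3385 and 3441 CPM in w+ males, a log2 fold change of -0.37 ± 0.05 (SE; edgeR adjusted p = 0.0028). The highest w- library was below the lowest w+ library for both. eEF1gamma fell by 0.49. Mitochondrial ribosomal protein genes showed less, with 4 of 72 lower and a median of -0.07, and of 28 genes of ribosome assembly 2 fell. Of the 49 factor genes, 15 passed without pair 1, 10 without pair 3, 10 without pair 5 and 11 without pairs 1 and 4. Among RNAs of the mitochondrial genome, 5 of 16 fell and 0 rose. The large ribosomal RNA mt:lrRNA, the most abundant gene that changed, had 43346, 42793, 42357, 42089 and 42613 CPM in w- males, against 51380, 58995, 48578, 47255 and 56161 CPM in w+ males, a log2 fold change of -0.29 ± 0.06 (SE; edgeR adjusted p = 0.021), and did not pass without pair 5. The oxidase subunit genes mt:CoI, mt:CoII and mt:CoIII fell by 0.35, 0.30 and 0.40, and mt:Cyt-b fell by 0.23. Nuclear genes of the respiratory chain and ATP synthase stood below the background share, with 1 higher and 4 lower of 77, though 19 passed without pair 2 and 0 without pair 1, 3 or 5.

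Genes of fuel metabolism fell in several pathways, and none rose in those described here except 1 gene of purine metabolism. Of 18 genes of fatty acid oxidation, 14 fell and all 18 were below 0, with a median log2 fold change of -0.38. The enoyl-CoA hydratase gene Echs1 had 74.0, 83.4, 72.4, 85.4 and 69.2 CPM in w- males, against 116, 104, 128, 113 and 129 CPM in w+ males, a log2 fold change of -0.62 ± 0.09 (SE; edgeR adjusted p = 0.0074). The electron transfer flavoprotein gene Etfb had 124, 138, 128, 143 and 119 CPM in w- males, against 189, 169, 194, 182 and 191 CPM in w+ males, a log2 fold change of -0.51 ± 0.06 (SE; edgeR adjusted p = 0.0031). The groups did not overlap for either, and the thiolase gene yip2 and the acyl-CoA dehydrogenase gene Acadvl fell by 0.57 and 0.39. Of 32 genes of fatty acid synthesis and lipid storage, 13 fell, with a median of -0.26. Malic enzyme (Men), a source of NADPH for lipid synthesis, had 623, 761, 750.1, 853 and 638 CPM in w- males, against 1041, 1169.9, 1201, 1109 and 1268 CPM in w+ males, a log2 fold change of -0.68 ± 0.08 (SE; edgeR adjusted p = 0.0027). Fatty acid synthase FASN1 had 1159.6, 1591, 1438, 1468 and 897 CPM in w- males, against 1729, 2549, 2031, 1866 and 1829 CPM in w+ males, a log2 fold change of -0.63 ± 0.09 (SE; edgeR adjusted p = 0.0056). The acetyl-CoA synthetase gene AcCoAS fell by 0.57, ATPCL by 0.43, the carboxylase gene ACC by 0.44 and the desaturase gene Desat1 by 0.50. The lipid droplet gene Lsd-1, with -0.77 ± 0.19, and the lipophorin gene apolpp, with -0.52 ± 0.14, did not pass (SE; edgeR adjusted p = 0.062 and adjusted p = 0.063 in this order).

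Of 25 genes of gluconeogenesis, glycogen, trehalose and sugar digestion, 12 fell, with a median of -0.34. Trehalose-6-phosphate synthase Tps1, which makes the blood sugar of flies, had 333, 503, 390.4, 489 and 336 CPM in w- males, against 629.6, 687, 661, 682 and 778 CPM in w+ males, a log2 fold change of -0.76 ± 0.12 (SE; edgeR adjusted p = 0.011). Pyruvate carboxylase PCB had 336, 391, 353, 445 and 343 CPM in w- males, against 509, 563, 603, 529.8 and 634 CPM in w+ males, a log2 fold change of -0.61 ± 0.09 (SE; edgeR adjusted p = 0.0056). Amylase (Amy-p), also a midgut marker, fell by 1.55, Pgm1 by 0.45, fbp by 0.69 and the trehalose transporter gene Tret1-1 by 0.43. Of 20 glycolysis genes 9 fell, among them the hexokinase gene Hex-C by 0.88, Ldh by 0.82, the pyruvate carrier gene Mpc1 by 0.39 and Gpdh1 by 0.28, and of 27 genes of the tricarboxylic acid cycle 8 fell, among them Mdh1 by 0.51, Pdk by 0.40 and Scsalpha1 by 0.35. Of 18 purine genes 2 fell and 1 rose, 16.7% beside 12.7% of all genes. Prat2, the first enzyme of purine synthesis, had 107, 164, 129, 179 and 98.3 CPM in w- males, against 209, 215, 384, 299 and 303 CPM in w+ males, a log2 fold change of -1.06 ± 0.21 (SE; edgeR adjusted p = 0.035). Paics, a later enzyme, had 227, 299, 217, 367 and 274 CPM in w- males, against 447, 405, 693, 526 and 718 CPM in w+ males, a log2 fold change of -1.0 ± 0.21 (SE; edgeR adjusted p = 0.041). Their w- libraries were all below their w+ libraries, and w+ males 3 and 5 were highest for Paics. Neither gene passed when any of pairs 1, 3, 4 and 5 or the 3 testis-type libraries were left out. The fat body marker sum given above was lower in w- males, as were the medians of these lists, and its part in them was not tested. FASN1, Lsd-1 and apolpp, described with the lipid genes, are also markers in that sum. The sum is therefore not a separate observation from the lipid genes. In fatty acid oxidation 6 genes passed without pair 3, 6 without pair 5, 5 without pairs 1 and 4 and 8 without the 3 testis-type libraries, and in glycolysis 2, 3, 3 and 5 did. In the tricarboxylic acid cycle 3, 3, 3 and 4 passed in the same fits. Of the genes of fatty acid synthesis and storage, 8 passed without pair 2, 7 without pair 3 and 6 without pair 5, and of those of gluconeogenesis and sugar stores 7 without pair 1, 7 without pair 3 and 6 without pair 5. Each of these lists had a median below 0 under every setting tried.

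**Figure D5:**
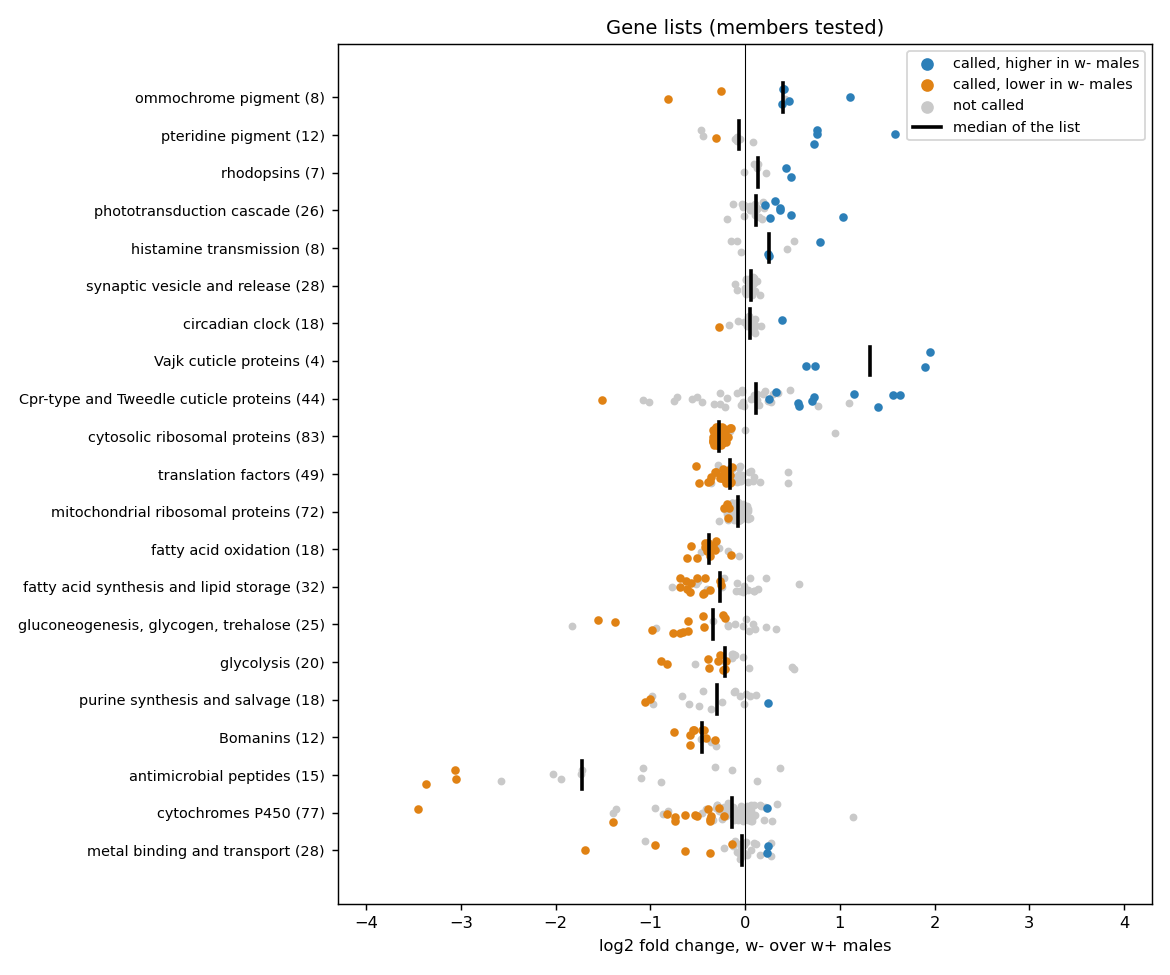
Log2 fold change of w- over w+ males for the members of 21 gene lists (number tested in brackets), with genes that rose in blue, genes that fell in orange, the others in gray and the list median as a black bar. The ribosomal protein genes lie in a narrow band around -0.28, the Vajk genes all lie right of 0 and the antimicrobial peptide genes spread furthest to the left.

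Of 35 neuropeptide genes 2 rose and 4 fell, and of 19 insulin pathway genes 1 rose and 3 fell, Ilp3, Ilp5 and Ilp6, against 12.7% of all genes that passed in either direction. Of the insulin-like peptides made by the brain's insulin-producing cells, Ilp3 had 4.60, 4.30, 2.80, 3.32 and 3.27 CPM in w- males, against 7.89, 10.7, 14.2, 16.3 and 16.7 CPM in w+ males, a log2 fold change of -1.81 ± 0.29 (SE; edgeR adjusted p = 0.017). Ilp5 had 11.0, 9.12, 12.2, 11.8 and 11.2 CPM in w- males, against 12.6, 15.1, 18.8, 15.2 and 17.1 CPM in w+ males, a log2 fold change of -0.50 ± 0.08 (SE; edgeR adjusted p = 0.0060). Ilp2, from the same cells, had 88.7, 87.1, 99.3, 88.2 and 92.4 CPM in w- males, against 84.7, 91.3, 97.5, 83.6 and 94.9 CPM in w+ males, with overlapping groups and a log2 fold change of 0.01 ± 0.04 (SE; edgeR adjusted p = 0.87). Ilp6, the insulin-like peptide of the fat body, had 35.2, 40.9, 31.7, 37.3 and 35.2 CPM in w- males, against 56.0, 64.1, 55.8, 50.5 and 65.6 CPM in w+ males, a log2 fold change of -0.69 ± 0.07 (SE; edgeR adjusted p = 8.7e-04). Thus Ilp3 and Ilp5 were below the w+ range in every w- library, and Ilp2 was not. CCHa2, a peptide of fat body and gut that stimulates the insulin-producing cells, had 164, 184, 199, 205 and 123 CPM in w- males, against 306, 337, 451, 342 and 345 CPM in w+ males, a log2 fold change of -1.04 ± 0.11 (SE; edgeR adjusted p = 0.0036). The neuropeptide precursor gene Nplp2 had 1447, 1832, 1629, 2114 and 1373 CPM in w- males, against 2468, 2681, 3110.3, 3037 and 2945 CPM in w+ males, a log2 fold change of -0.78 ± 0.09 (SE; edgeR adjusted p = 0.0027). Capa fell by 0.29 and AstA by 0.19, while Nplp3 rose by 0.68 ± 0.10 and SIFa by 0.26 ± 0.04. Without pairs 1 and 4, 2 of the 35 neuropeptide genes passed. Ilp3 did not pass without pair 4 or without pair 5, and Ilp5 did not pass without the 3 testis-type libraries.

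Of 15 antimicrobial peptide genes tested, 3 fell and 0 rose (20%, beside 12.7% of all genes). The median log2 fold change was -1.72, and the groups overlapped for all 15. Their summed level was 675 to 841 CPM in w- males and 639 to 877 CPM in w+ males. The 7 genes AttB, AttC, AttD, CecA1, CecA2, DptB and Mtk are those that the study singled out on these samples, so they are not independent evidence of a direction. CecA2 had 0.0551, 0.0289, 0.0800, 0.187 and 0.128 CPM in w- males, against 0.204, 0.122, 0.802, 1.87 and 1.40 CPM in w+ males, a log2 fold change of -3.05 ± 0.32 (SE; edgeR adjusted p = 0.0015). AttD had 0.0275, 0, 0.0267, 0.241 and 0.153 CPM in w- males, against 0.123, 0.416, 3.29, 1.25 and 0.570 CPM in w+ males, a log2 fold change of -3.37 ± 0.73 (SE; edgeR adjusted p = 0.028). W+ males 3, 4 and 5 were high, and w+ males 1 and 2 were nearer to or within the w- range. CecA2 and AttD had under 10 reads in every w- library and met the count filter only through w+ libraries. Their fold values and p-values are therefore given as description of these reads. CecA1 fell by 3.06, and AttC, DptB, Mtk and AttB did not pass, with log2 fold changes of -2.03 ± 0.57, -2.57 ± 0.72, -1.94 ± 0.56 and -1.08 ± 0.44. CecA1 did not pass in a fit of all 10 libraries without the pairs. It passed without pairs 1 and 4, where CecA2 fell under the count filter and AttD did not pass. None of the 3 passed without the 3 testis-type libraries, a fit that also leaves the pairs out, or in the fit of all 20 samples.

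Of the 12 Bomanins, short secreted peptides induced by Toll signaling, 9 fell and 0 rose, with a median of -0.46, and all 12 were below 0. The groups did not overlap for 2 of the 12, a share near the 13.0% of all genes. BomS4 had 26.6, 31.3, 28.2, 34.6 and 27.9 CPM in w- males, against 41.1, 41.8, 41.9, 49.4 and 47.1 CPM in w+ males, a log2 fold change of -0.58 ± 0.05 (SE; edgeR adjusted p = 8.6e-04). BomT1 had 3.53, 4.76, 3.89, 5.54 and 5.04 CPM in w- males, against 5.64, 7.15, 7.76, 8.60 and 9.14 CPM in w+ males, a log2 fold change of -0.75 ± 0.08 (SE; edgeR adjusted p = 0.0015). Every w- library was below every w+ library for both genes, and BomBc3 fell by 0.54. Without pair 2, without the 3 testis-type libraries or in the fit of all 20 samples, 3 of the 12 passed, and 5 did without pair 3. Of 9 peptidoglycan recognition genes, the Toll pathway receptors PGRP-SA and PGRP-SD fell by 0.78 and 1.04, while PGRP-LA rose by 0.24 ± 0.05 and the amidase gene PGRP-LB by 0.24 ± 0.06. The NF-kappaB gene Relish (Rel) had 111, 118, 126, 116 and 115 CPM in w- males, against 129, 135, 172, 160.1 and 152 CPM in w+ males, a log2 fold change of -0.35 ± 0.05 (SE; edgeR adjusted p = 0.0054). The serpin gene necrotic (nec), which restrains Toll activation, fell by 0.32, and the thioester protein genes Tep2 and Tep3 changed in opposite directions, by -0.50 and 0.34. Of the 6 hemocyte markers, 1 passed (crq, higher) and their summed level was 399 to 603 CPM in w- males and 421 to 521 CPM in w+ males.

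Detoxification and metal genes were mostly lower where they changed. Of 77 cytochrome P450 genes, 14 fell and 1 rose (19.5%, beside 12.7% of all genes), with a median of -0.14. Beside Cyp4d1, Cyp309a2 fell by 1.39 and Cyp4d14 by 0.82, and Cyp6a20 was the riser at 0.24 ± 0.04 (SE; edgeR adjusted p = 0.0072). Of 33 glutathione S-transferase genes 6 fell and 1 rose (21.2%), GstE9 falling by 0.58 and GstE14 rising by 0.51 ± 0.09. The P450 genes that passed numbered 9 without pair 1, 7 without pair 3 and 8 without pair 5, and the glutathione S-transferase genes 4, 4 and 1 in these fits and 2 without pairs 1 and 4. The glucuronosyl transferase genes were split, with Ugt37A1 higher by 1.26 ± 0.28 and Ugt37B1 lower by 1.64, both under 3 CPM. Among 28 genes of metal binding and transport, 5 fell and 2 rose (25%). The metallothionein gene MtnD had 1.87, 2.71, 1.41, 3.37 and 2.38 CPM in w- males, against 5.35, 6.97, 8.26, 6.39 and 10.9 CPM in w+ males, a log2 fold change of -1.69 ± 0.25 (SE; edgeR adjusted p = 0.0095). MtnE fell by 0.95, and transferrin (Tsf1), the abundant iron carrier of fly blood, had 1449, 1903, 1590.2, 2077 and 1658 CPM in w- males, against 2374, 2447, 2613, 2710.2 and 3312 CPM in w+ males, a log2 fold change of -0.63 ± 0.09 (SE; edgeR adjusted p = 0.0063). The odorant binding protein genes Obp99c and Obp57a changed by -0.87 ± 0.11 and 0.40 ± 0.06, as the only members of 32 that passed. That is 6.25%, below the 12.7% of all genes.

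Lists of nervous system genes differed in the share that passed. Of 28 genes of the synaptic vesicle and release machinery 0 passed edgeR's test (3 at an unadjusted p under 0.05, and 1 passed in DESeq2), and 24 of the 28 were above 0 with a median of 0.06. Of 22 voltage-gated channel genes 1 rose, the gene Ih, by 0.16 ± 0.04. Of 12 genes induced by neuronal activity 1 rose (Arc1) and 3 fell (cbt, CG14186 and CG17778), 33.3% beside 12.7% of all genes, and 2 passed without pairs 1 and 4 and 0 without the 3 testis-type libraries in the fit without the pairs. Arc1, whose protein forms virus-like capsids, had 217, 188, 216, 325 and 552 CPM in w- males, against 75.6, 100.2, 119, 92.1 and 116 CPM in w+ males, a log2 fold change of 1.47 ± 0.24 (SE; edgeR adjusted p = 0.021). W- males 5 and 4 were highest, and all w- libraries were above the w+ range, but Arc1 did not pass without pair 1, without pair 4 or without the testis-type libraries. The transcription factor gene cabut (cbt) fell by 0.33 with overlapping groups, each w- library lying below the w+ library of its number. The clock gene per, shown above by library, rose by 0.39 ± 0.06 (SE; edgeR adjusted p = 0.0056) and was higher in w- males in 5 of 5 pairs but overlapped between the groups. Neither per nor cbt passed in the fit of all 10 libraries without the pairs, and both passed without pairs 1 and 4. The receptor gene of the clock peptide, Pdfr, fell by 0.27. Pdfr and per were the only genes of 18 in the clock list that passed, 11.1% beside 12.7% of all genes. Both lie within 1 Mb of w, where an effect of w and a difference in their own sequence cannot be told apart. Of 28 genes of dopamine, serotonin and octopamine signaling 3 rose and 0 fell, 10.7% and so below the 12.7% of all genes. The serotonin receptor gene 5-HT2A had 89.1, 90.6, 79.5, 81.5 and 88.4 CPM in w- males, against 57.5, 72.3, 67.8, 56.6 and 60.1 CPM in w+ males, a log2 fold change of 0.45 ± 0.06 (SE; edgeR adjusted p = 0.0040). TyrRII rose by 0.43 ± 0.06 and DopEcR by 0.31 ± 0.07. The ebony gene (e), whose glial enzyme makes carcinine from histamine, had 44.0, 75.2, 21.9, 29.8 and 28.0 CPM in w- males, against 22.8, 30.5, 42.3, 25.0 and 19.2 CPM in w+ males, a log2 fold change of 0.44 ± 0.36 (SE; edgeR adjusted p = 0.53) that did not pass. Of 13 genes in the glial list 2 rose and 0 fell, 15.4% beside 12.7% of all genes, with a median of -0.003 and 8 members below 0. The risers were Gli and ltl, by 0.30 ± 0.05 and 0.29 ± 0.04, while 6 of 6 glial markers did not pass.

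Other families stood at or below the background share of 12.7%. Of 25 gustatory receptor genes 0 passed in edgeR or DESeq2 (4 at an unadjusted p under 0.05), and 1 of 43 odorant receptor genes, 1 of 26 ionotropic receptor genes, 1 of 19 heat shock genes, 1 of 35 proteasome genes and 2 of 35 muscle genes did. Of the 35 proteasome genes, though, 32 were below 0, with a median of -0.12. An edgeR unadjusted p under 0.05 was seen for 17 of them, beside 2959 of all 11187 genes. Without pair 2, 7 proteasome genes passed, and 0 without pair 3 or pair 5. Of 14 genes of sex determination and dosage compensation 0 passed in either tool (2 at an unadjusted p under 0.05), and of 4 Turandot stress genes 0 passed in edgeR (2 at an unadjusted p under 0.05) and 1 in DESeq2. Of 684 long noncoding RNAs 18 rose and 31 fell. Above that share were the genes of Toll, Imd and JAK-STAT signaling (1 higher and 5 lower of 29), endoplasmic reticulum stress (4 lower of 20), antioxidant defense (3 lower of 18), pyrimidine metabolism (2 lower of 10), the vacuolar proton pump (1 higher and 3 lower of 23), hydrocarbon and fatty alcohol synthesis (1 higher and 4 lower of 18) and the actins (1 higher and 1 lower of 6). Without pair 5, 0 genes of endoplasmic reticulum stress, antioxidant defense and pyrimidine metabolism and 1 of the proton pump passed, without pair 3, 0 of antioxidant defense, and without pairs 1 and 4, 0 actins. The Toll, Imd and JAK-STAT genes that passed numbered 3 without pair 3 or pair 5, and the hydrocarbon genes 2 without pair 2.

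Calls of single named genes depended on the libraries in the fit. Of 149 named genes that passed, 43 did not pass in at least 1 of the 5 fits without a pair, and 15 in at least 4 of them (ACC, Apoltp, AstA, CG34138, Cds, fbp, ine, Kyat, mt:Cyt-b, Paics, PGRP-LB, PGRP-SD, Prat2, Vajk2 and yip2). Without the 3 testis-type libraries, in a fit that also leaves the pairs out, 30 did not pass, and 7 of these 30 (ACC, CecA1, PGRP-LB, cbt, mt:Cyt-b, per and retinin) also did not in a fit of all 10 libraries without the pairs. Without pairs 1 and 4, with the other pairs kept, 27 did not pass. The genes that passed in neither fit were Amy-p, Arc1, AstA, AttD, DopEcR, Kyat, Nplp3, PGRP-LB, PGRP-SD, Paics, Prat2, Ugt37B1, mt:Cyt-b, rdgC and yip2. Beside these, BomBc3, CecA2, Desat1, DhpD, FASN1, Ilp5, Ldh, Pdh, Rel and mt:CoI did not pass without the 3 libraries, and Capa, CarT, Gpdh1, GstE9, Hex-C, SIFa, Tps1, Ugt37A1, prom, rst and v did not pass without pairs 1 and 4. The X-linked genes CG4020, Acsf3, CBP and APC7 passed in all of these fits.

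The change in males was also tested against the change in females, in a fit of all 20 samples with the pairs as blocks. By the crossing scheme the w+ females carried 1 Harwich copy of w and of the DNA next to it beside 1 copy from w1118, while the w+ males had the Harwich copy alone, so sex and the dose of the Harwich DNA cannot be told apart in this test. It differed for 3 of 11423 genes (0.0263%, with 689 at an unadjusted p under 0.05), all lower in males and all on the X chromosome. Among females alone, 9.23% of 10762 genes passed. CG4020, with levels scaled over the 20 samples, had 0.588, 0.510, 0.449, 0.344 and 0.477 CPM in w- males, against 27.7, 43.6, 41.8, 40.0 and 32.4 CPM in w+ males, and 3.43, 2.24, 2.45, 2.45 and 2.66 CPM in w- females, against 18.4, 32.3, 33.6, 16.4 and 15.1 CPM in w+ females. The male minus female log2 fold change was -3.21 ± 0.38 (SE; edgeR adjusted p = 0.035). W- males lay below w- females, and w+ males overlapped w+ females. APC7 had 0.792, 0.725, 0.574, 0.811 and 0.930 CPM in w- males, against 2.95, 4.21, 4.38, 4.26 and 4.19 CPM in w+ males, and 0.838, 0.789, 0.683, 0.431 and 0.642 CPM in w- females, against 0.786, 0.725, 1.11, 0.554 and 0.728 CPM in w+ females. The difference was -2.18 ± 0.23 (SE; edgeR adjusted p = 0.0072), and both female groups stood at the level of the w- males. FarO had 2.66, 2.5, 2.80, 2.61 and 2.17 CPM in w- males, against 8.89, 8.27, 9.18, 10.1 and 7.26 CPM in w+ males, and 5.46, 5.19, 5.41, 4.68 and 4.64 CPM in w- females, against 8.13, 6.93, 7.04, 4.49 and 8.44 CPM in w+ females. The difference was -1.34 ± 0.15 (SE; edgeR adjusted p = 0.0072), and w- females lay above w- males while the red-eyed groups overlapped. CG6656 and CG3071 came next but did not pass, at 0.57 ± 0.09 (SE; edgeR adjusted p = 0.17) and 0.45 ± 0.08 (SE; edgeR adjusted p = 0.20). Leaving out 1 sample number gave 0 to 5 such genes, and DESeq2 gave 18.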

How the data were processed

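RNA of pooled heads was sequenced after an mRNA library kit. The authors trimmed the reads with Trim Galore 0.6.1, aligned them to the fly genome with STAR and deposited its raw counts per gene, unnormalized and with samples kept apart. The deposited tables of normalized counts were not used. Genes that reached 10 counts in 3 or more male samples were tested with edgeR 4.0.16 (limma 3.58.1, R 4.3.3) by TMM scaling and the quasi-likelihood test, with the replicate number as a block, as in the authors' own fit. P-values were adjusted by the Benjamini-Hochberg method, with 0.05 as the threshold. Male and female changes were compared by an interaction term over all 20 samples. Tables used Python 3.11.15, pandas 2.3.3 and scipy 1.17.1. Positions come from the BDGP6.54 annotation, and no sequence was used. The fit was tested on simulated data.

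The members, the 59 gene lists and the alternatives were chosen with earlier results of these data known. Named genes were w, the 10 largest rises and falls with a mean of at least 1 CPM in a group and 1 direction in all 5 pairs, the 5 most abundant called genes in each direction, the 5 genes with the smallest p of the sex difference, 7 antimicrobial peptide genes of the study, the 10 smallest p within 1 Mb of w, and up to 3 called members per list and direction. Of the genes that this rule gives, 1 is not reported here. Named after their values were seen were Hsp83, dj, Mst98Ca, CG12995, CG12998, CG31862, RpL38, RpL10Aa, RpS15Ab, Ih, CG14186, CG17778 and the list members given as not called. The alternatives were DESeq2 1.42.0, its size factors, library totals alone, other count filters, thinning to the smallest total, no block, a fit of all 20 samples, each pair left out and, chosen after seeing the data, the testis-type libraries left out.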

Additional observations from a re-analysis of the deposited data

Results flagged for a closer look

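Over 171 named genes, 342 groups of 5 samples were examined for a library far from the other 4, with a gap of more than 0.71 of the group's range. Chance gives about 5% of groups, and 15 were found, which is fewer than that. W- males 2 stood apart for KFase (35.73 CPM, against 30.68 to 31.99 CPM in the other w- males), for the scavenger receptor gene ninaD (3.521 CPM, against 2.326 to 2.49 CPM) and for GstE14 (31.32 CPM, against 28.03 to 28.83 CPM). W- males 4 stood apart for DptB (0.9637 CPM, against 0.4531 to 0.5783 CPM), and w- males 5 for CecA1 (0.5879 CPM, against 0.0275 to 0.1443 CPM).

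Among red-eyed males, w+ males 1 was low for APC7 (3.188 CPM, against 4.512 to 4.736 CPM in the other w+ males). W+ males 3 was high for ninaD (2.51 CPM, against 1.351 to 1.662 CPM), CCHa2 (451.2 CPM, against 306.3 to 345.3 CPM), Nplp3 (302.6 CPM, against 190.6 to 220.0 CPM) and PGRP-SA (18.97 CPM, against 14.75 to 15.69 CPM). W+ males 4, a testis-type library, was high for Rh6 (381 CPM, against 338.6 to 343.4 CPM), CG13046 (0.1719 CPM, against 0.0518 to 0.0818 CPM), PGRP-LA (67.47 CPM, against 58.11 to 59.99 CPM) and CG13272 (7.565 CPM, against 2.232 to 3.545 CPM), and low for CR14798 (0.6632 CPM, against 0.8788 to 0.9055 CPM).

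The change with eye color differed between males and females for APC7 (male minus female log2 fold change -2.175), FarO (-1.336) and CG4020 (-3.211), by the interaction test given above.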

How the results depend on the processing

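The count of 1421 genes ranged between 714 and 1526 when 1 replicate pair was left out, 1041 without pair 1, 1526 without pair 2, 792 without pair 3, 1313 without pair 4 and 714 without pair 5. The genes that rose numbered 258 to 602 and those that fell 456 to 924. The interaction gave 0 to 5 genes in those fits (0 without pair 1 or 2) and 18 in DESeq2, 7 higher and 11 lower in males. Scaling by library totals alone gave 1054 higher and 722 lower genes. Leaving out pairs 1 and 4 gave 923 (323 higher, 600 lower), and leaving out only the 3 testis-type libraries gave 1079 (402 higher, 677 lower), both chosen after seeing the data. DESeq2 gave 1360 genes, its size factors 1397, thinning 1396, a minimum of 1 count 1265, 10 counts in every sample 1526 and the fit of all 20 samples 1310. The difference in library totals of w- and w+ males was -7.5529 to -4.9553 in units of 1e6 reads with 1 pair left out. The cause of these changes was not tested, beside the fewer samples of the fits that left some out.

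A pair of uncalled values changed sign. The log2 fold change of ninaE was 0.0445 with totals alone, 0.0392 without pairs 1 and 4, 0.0178 without the 3 libraries and -0.0348 to 0.0290 with 1 pair left out. The log2 fold change of Ilp2 was -0.0350 without pairs 1 and 4 and -0.0101 to 0.0301 with 1 pair left out. Of 149 named genes that passed, 0 reversed. All 149 passed with DESeq2 size factors, 146 with DESeq2, 145 with totals alone, 132 in the fit of all 20 samples and 113 without pair 5.

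The replicate numbers were checked as pairs. Deviations of same-numbered w- and w+ samples from their group means correlated at -0.479, 0.486, 0.132, 0.753 and 0.474 over genes, for numbers 1 to 5, so not every pair was above 0.1, and 5 of 10 samples correlated best with their own number. Without the 246 testis-type genes the values were -0.167, 0.223, -0.248, 0.121 and 0.222, and 4 of 10 samples did so. Without the block, 1737 genes passed (650 higher, 1087 lower), 1310 of them among the 1421, and the interaction gave 3 genes. Genes with a few reads per library, such as CG12995, CG31862 and the antimicrobial peptide genes, are limited by depth, since 3 reads were 0.0614 to 0.0874 CPM in these libraries.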
